A study of Homo sapiens with 3 samples.

Results

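The aryl hydrocarbon receptor pathway was followed through 8 genes, chosen by symbol from the 56632 gene IDs of the deposited tables. They are the receptor AHR, its partner ARNT, the repressor AHRR, the cytochrome P450 genes CYP1A1, CYP1A2 and CYP1B1, and the target genes TIPARP and NEDD9. RNA was sequenced in 3 libraries of the human breast cancer line MCF10Ca1h, an established malignant line of the MCF10 series, grown in medium with horse serum. The untreated library is called NT, with no time given in its labels. Another came from cells given GSK484, an inhibitor of the arginine-citrullinating enzyme PADI4, for 72 h, and the last, CON, from cells that received a control compound over the same 72 h. The control compound is named GSK107 in the labels and GSK106 in the name of its table, and no dose is given. The labels give all 3 libraries the same line, medium and protocols, and there were no replicates. Every difference below is therefore one of single libraries and has no replicate spread to be set against.

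AHR is a ligand-activated transcription factor of the bHLH-PAS family that waits in the cytoplasm in a complex with HSP90 and the co-chaperone p23. Dioxins, polycyclic aromatic hydrocarbons and tryptophan metabolites such as kynurenine bind it, after which it enters the nucleus, pairs with ARNT and binds xenobiotic response elements. The CYP1 genes are its classical targets, and AHRR and TIPARP are targets that feed back to repress it. In breast epithelium the CYP1 enzymes are known for metabolising polycyclic hydrocarbons and oestrogens, CYP1B1 by hydroxylating oestradiol.

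The response element has the core GCGTG, which is also a form of the core read by hypoxia-inducible factors. It was searched on both strands (CACGC on the other strand) in RefSeq windows of 250 bases before to 50 after each start site, on GRCh38.p14. Of the 8 members, 7 had an entry, with 12 windows in all, and CYP1B1 had none. The core was present in 36.5% of the 35116 windows of all genes, and the longer form TNGCGTG in 5.51%. CYP1A1 had 1 core match, from -57 to -53 relative to the start. AHR had 1 match, after its start, from 38 to 42. AHRR had 1 match in the first of its windows, from -30 to -26, which was also the only match to the longer form among the members, and 2 in the other. TIPARP had 2 matches in the first of its 3 windows, both on the other strand, and 0 in the others. ARNT, CYP1A2 and all 3 windows of NEDD9 had 0. The 250 bases before the start are shown for CYP1A1, TIPARP and NEDD9. CYP1A1 is a classical target that was lower in the GSK484 library. TIPARP is a target that was not lower in GSK484 than in CON, though it was lower than in NT. NEDD9 was lower in GSK484 without a core match in its windows. Capitals mark the core.
CYP1A1 (chr15:74725529-74725778, minus strand): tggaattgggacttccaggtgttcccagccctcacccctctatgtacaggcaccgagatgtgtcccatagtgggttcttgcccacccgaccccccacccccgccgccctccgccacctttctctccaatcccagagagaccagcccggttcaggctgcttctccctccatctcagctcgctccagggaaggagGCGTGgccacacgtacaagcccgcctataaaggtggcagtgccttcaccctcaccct
TIPARP (chr3:156674340-156674589, plus strand, first window): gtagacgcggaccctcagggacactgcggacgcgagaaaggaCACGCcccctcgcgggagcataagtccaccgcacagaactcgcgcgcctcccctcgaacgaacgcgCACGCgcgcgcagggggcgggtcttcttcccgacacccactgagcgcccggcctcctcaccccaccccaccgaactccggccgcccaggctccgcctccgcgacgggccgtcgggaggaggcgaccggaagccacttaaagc
NEDD9 (chr6:11382349-11382598, minus strand, first window): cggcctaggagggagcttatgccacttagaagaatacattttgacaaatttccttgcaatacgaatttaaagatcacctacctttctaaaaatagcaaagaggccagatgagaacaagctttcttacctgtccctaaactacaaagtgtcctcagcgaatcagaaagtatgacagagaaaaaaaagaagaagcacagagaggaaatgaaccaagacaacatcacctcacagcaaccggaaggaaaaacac
A match is a description of the letters in these windows and no evidence of binding in these cells. Sequence beyond the windows was not searched, so a window without a match does not mean that a gene lacks the element. Whether matches go with the levels was not tested.

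The libraries held 70555229 (NT), 92980847 (CON) and 77220120 (GSK484) expected counts. All 6 epithelial markers (KRT5, KRT8, KRT18, KRT19, CDH1 and EPCAM) and all 6 basal epithelial markers were above 1 CPM (reads of a gene relative to the scaled size of its library) in every library. Of the luminal and hormone receptor genes, FOXA1 stood at 42.7 to 51.8 CPM, GATA3 at 33.3 to 37.4 and ESR1 at 1.30 to 1.64, while PGR was at 0 counts. The defining leukocyte genes PTPRC and CD3E were at 0. Of 4 endothelial markers 3 were found, PECAM1 not being matched to a gene ID. These 3 stood at 1.57 CPM or less and summed to 1.59 CPM or less. Of 6 fibroblast markers, 1 reached 1 CPM, and the 4 adipocyte and hepatocyte markers summed to 0.32 CPM or less. The part of these markers in the results below was not tested.

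Per transcript length, in TPM, the members spanned from not detected to well expressed. TIPARP, which codes for a mono-ADP-ribosyltransferase that marks AHR and limits its activity, had the highest level, at 14.85 TPM in NT, with 11.94 in CON and 13.72 in GSK484. ARNT was at 4.75, 4.91 and 4.87 TPM in the same order, and the scaffold gene NEDD9 at 4.79, 4.30 and 3.73. ARNT and NEDD9 could not be ranked in NT, where their counting intervals overlapped, while ARNT was above NEDD9 in CON and GSK484. AHR followed at 3.14 TPM in NT, with 2.05 in CON and 2.34 in GSK484, below its partner ARNT in all 3 libraries. CYP1B1 was at 1.04, 0.85 and 0.57 TPM, and CYP1A1 at 0.38, 0.35 and 0.20. AHRR stood at 0.07, 0.05 and 0.03 TPM and CYP1A2 at 0, 0.02 and 0. Of the 8 members, 5 passed the minimum of 1 CPM, and they did so in each of the 3 libraries. AHRR, CYP1A1 and CYP1A2 did not pass it in any library and were left out of the counts of members below. Expected counts of 7 members were whole in every library, so that no reads of CYP1A1 and CYP1A2, which are close relatives, were recorded as split between them. AHR was the exception, with expected counts that were not whole.

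**Figure D1:**
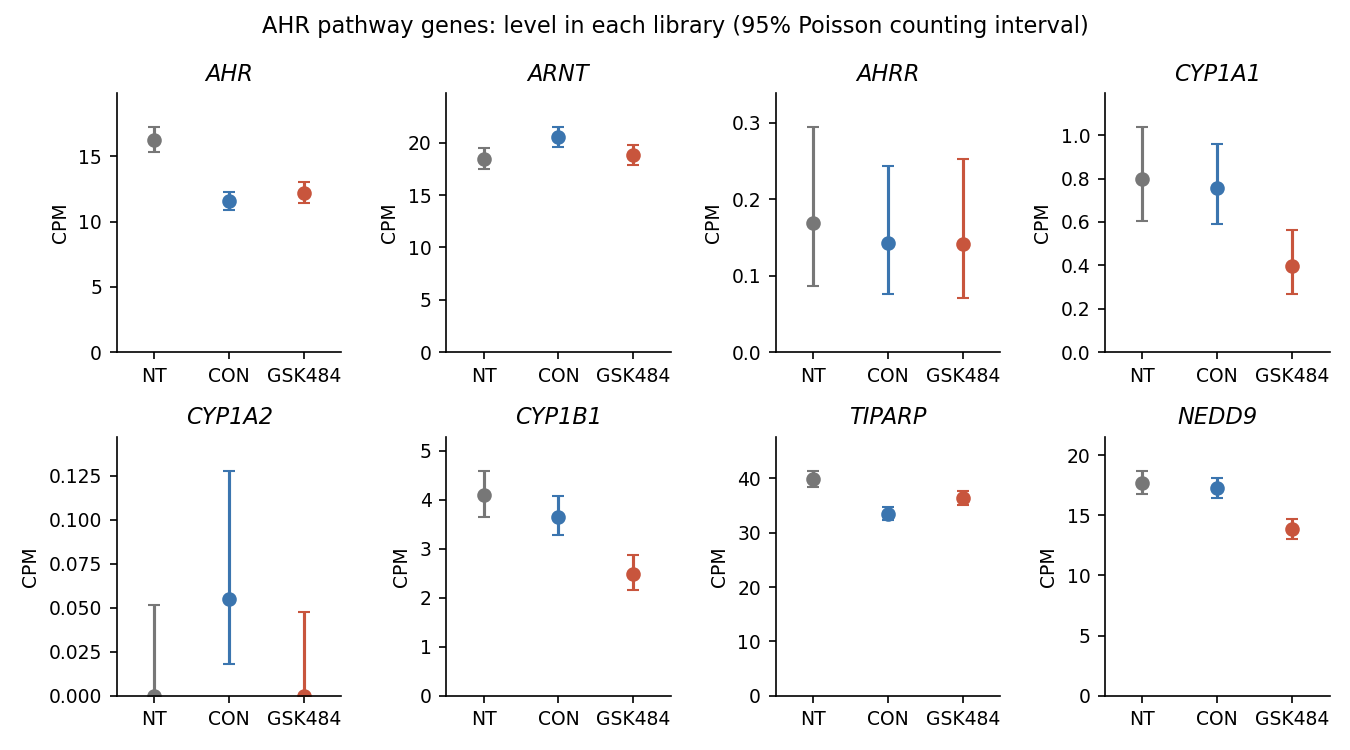
Level of each of the 8 genes in CPM (vertical axes, starting at 0 and different for each gene) in the untreated (NT), control compound (CON) and GSK484 libraries, with 95% Poisson counting intervals. GSK484 is the lowest library for CYP1A1, CYP1B1 and NEDD9, and NT is the highest for AHR and TIPARP.

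The receptor itself had fewer reads in both treated libraries than in NT. AHR (ENSG00000106546) was at 16.3 CPM in NT, with 11.6 in CON and 12.2 in GSK484. The treated libraries lay close together and below the untreated one. The log2 fold was -0.41 for GSK484 against NT (counting interval -0.54 to -0.29) and -0.49 for CON against NT (-0.61 to -0.37). GSK484 and CON did not differ beyond counting error (0.08, interval -0.05 to 0.21). AHR transcripts have a GC content of 38.2%, where the median of measured genes is 48.4%, and genes low in GC as a group were lower in CON than in NT. In the third of genes below 44.0% GC the median log2 fold for CON against NT was -0.22, and in the third above 53.6% it was 0.13. With the trend on GC content and length removed, CON and NT no longer differed in AHR (-0.04, interval -0.16 to 0.08). GSK484 then lay below NT by less (-0.21, interval -0.34 to -0.09) and below CON as well (-0.15, interval -0.28 to -0.03).

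**Figure D2:**
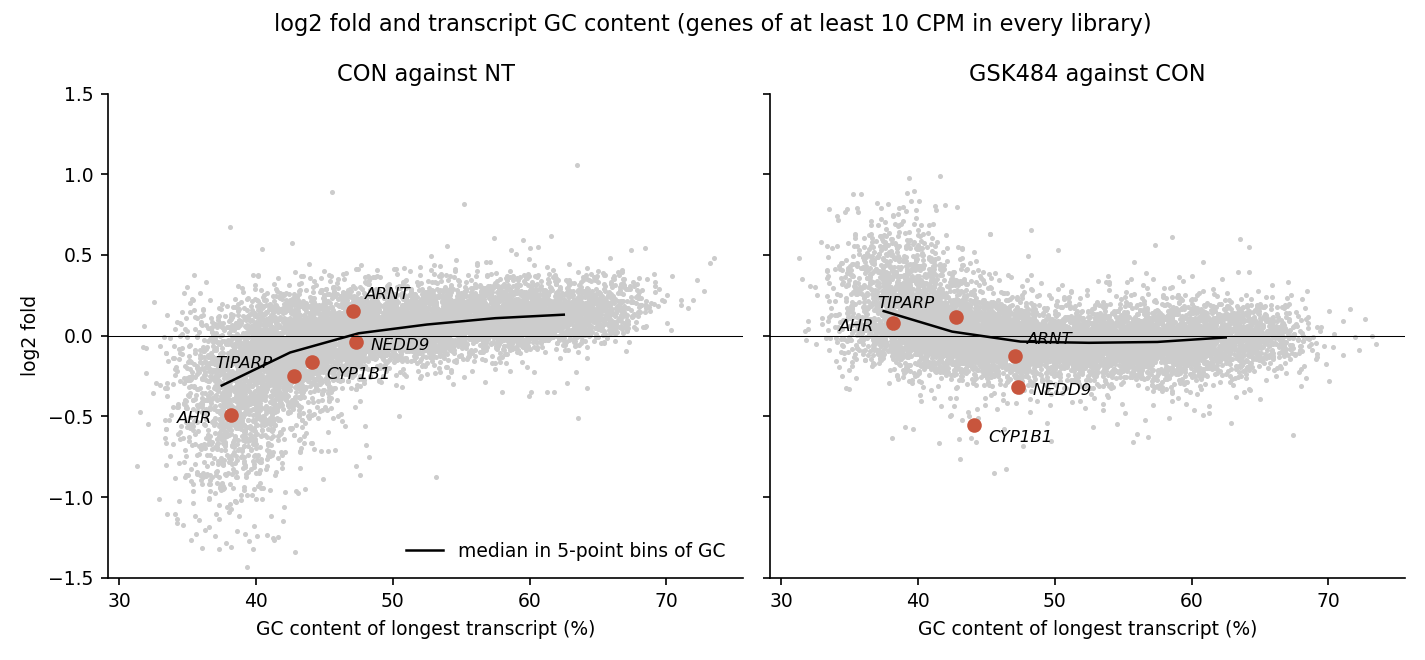
log2 fold (vertical axes) against GC content of the longest transcript (horizontal axes) for genes of at least 10 CPM in every library (grey; genes beyond the axis limits are not drawn), with the median in GC bins of 5 percentage points as a line and the 5 measured members in red, CYP1B1 being below 10 CPM. In CON against NT the line falls toward low GC and AHR, at 38.2% GC and -0.49, lies below it, while in GSK484 against CON CYP1B1 and NEDD9 lie below a flatter line.

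ARNT (ENSG00000143437), the obligate dimer partner that AHR shares with the hypoxia-inducible factors, varied little. It was at 18.5 CPM in NT, with 20.5 in CON and 18.8 in GSK484, so that CON was the highest library. The log2 fold was -0.13 for GSK484 against CON (interval -0.23 to -0.03), 0.15 for CON against NT (0.05 to 0.25) and 0.03 for GSK484 against NT (-0.08 to 0.13). Scaling to total counts brought GSK484 and CON within counting error (-0.09, interval -0.19 to 0.01), and in deposited TPM the log2 fold was -0.01. The level of AHR relative to ARNT, both in TPM, was 0.66 in NT, with 0.42 in CON and 0.48 in GSK484.

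CYP1B1 and CYP1A1 were lowest in the GSK484 library. CYP1B1 (ENSG00000138061) was at 4.10 CPM in NT, with 3.66 in CON and 2.49 in GSK484, from 292, 334 and 194 reads. NT and CON lay together, and GSK484 was apart from both. It was 1.47-fold lower in GSK484 than in CON (log2 fold -0.56, interval -0.82 to -0.30) and 1.65-fold lower than in NT (-0.72, interval -0.99 to -0.45), while CON and NT were within counting error (-0.16, interval -0.39 to 0.07). With the GC and length trend removed, these log2 folds were -0.63, -0.61 and 0.04. Of 13199 measured genes, 1.55% were as low as CYP1B1 or lower in GSK484 against CON, as were 2.98% of the 2319 genes within 2-fold of its level. Against NT these shares were 0.855% of 13209 genes and 1.53% of 2289.

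CYP1A1 (ENSG00000140465), the gene most used as a readout of AHR activity, was sparse, with 57 reads in NT, with 69 in CON and 31 in GSK484. That is 0.80, 0.76 and 0.40 CPM, with NT and CON together and GSK484 below both. The log2 fold was -0.92 against CON (interval -1.59 to -0.30) and -0.997 against NT (interval -1.69 to -0.35), and CON and NT were within counting error (-0.08, interval -0.61 to 0.45). The intervals allow folds from 1.23 to 3.01 against CON, since the reads are few. Of the 385 measured genes within 2-fold of its level, 5.97% were as low or lower against CON. Against NT the share was 3.17% of 505 genes. Those genes passed the minimum of 1 CPM, which CYP1A1 did not. The ratio of CYP1A1 to CYP1B1 in TPM was 0.37 in NT, with 0.41 in CON and 0.35 in GSK484. CYP1A2 (ENSG00000140505), the liver form of the family, had 0 reads in NT, with 5 in CON and 0 in GSK484. A count of 0 allows up to 3 reads, or 0.042 CPM in NT and 0.038 in GSK484, where CON was at 0.055. The counting interval of the log2 fold reached up to 0.35 for GSK484 against CON and down to -0.48 for CON against NT. Both intervals included no difference, so none lay beyond counting error.

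Of the feedback genes, TIPARP did not share the order of libraries seen in CYP1B1, and AHRR was too sparse to tell. AHRR (ENSG00000063438), which competes with AHR for ARNT, had 12 reads in NT, with 13 in CON and 11 in GSK484. The interval of the log2 fold for GSK484 against CON ran from -1.31 to 1.26, too wide to show a difference of the size seen in CYP1A1. TIPARP (ENSG00000163659) was at 39.9 CPM in NT, with 33.5 in CON and 36.4 in GSK484. GSK484 lay between the other libraries. It was above CON by a log2 fold of 0.12 (interval 0.04 to 0.19), which the removal of the GC and length trend brought within counting error (0.04, interval -0.03 to 0.12). It was below NT by a log2 fold of -0.14 (interval -0.21 to -0.06), or -0.03 (interval -0.11 to 0.05) with the trend removed. CON against NT was at -0.25 (interval -0.33 to -0.18), or -0.06 with the trend removed (interval -0.13 to 0.02).

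NEDD9 (ENSG00000111859), a scaffold protein gene of focal adhesions and cell migration that AHR is known to induce, was at 17.7 CPM in NT, with 17.3 in CON and 13.9 in GSK484. As for CYP1B1, NT and CON lay together in CPM and GSK484 was apart. The log2 fold was -0.32 against CON (interval -0.43 to -0.20) and -0.35 against NT (interval -0.47 to -0.23), and CON and NT were within counting error (-0.04, interval -0.15 to 0.07). The trend removed, the values were -0.34 against CON and -0.29 against NT. In deposited TPM, CON lay between the other libraries. The log2 folds there were -0.16 for CON against NT, -0.20 for GSK484 against CON and -0.36 for GSK484 against NT. Of all measured genes, 5.00% were as low or lower against CON and 6.60% against NT. Among genes within 2-fold of its level these shares were 2.06% and 5.85%.

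**Figure D3:**
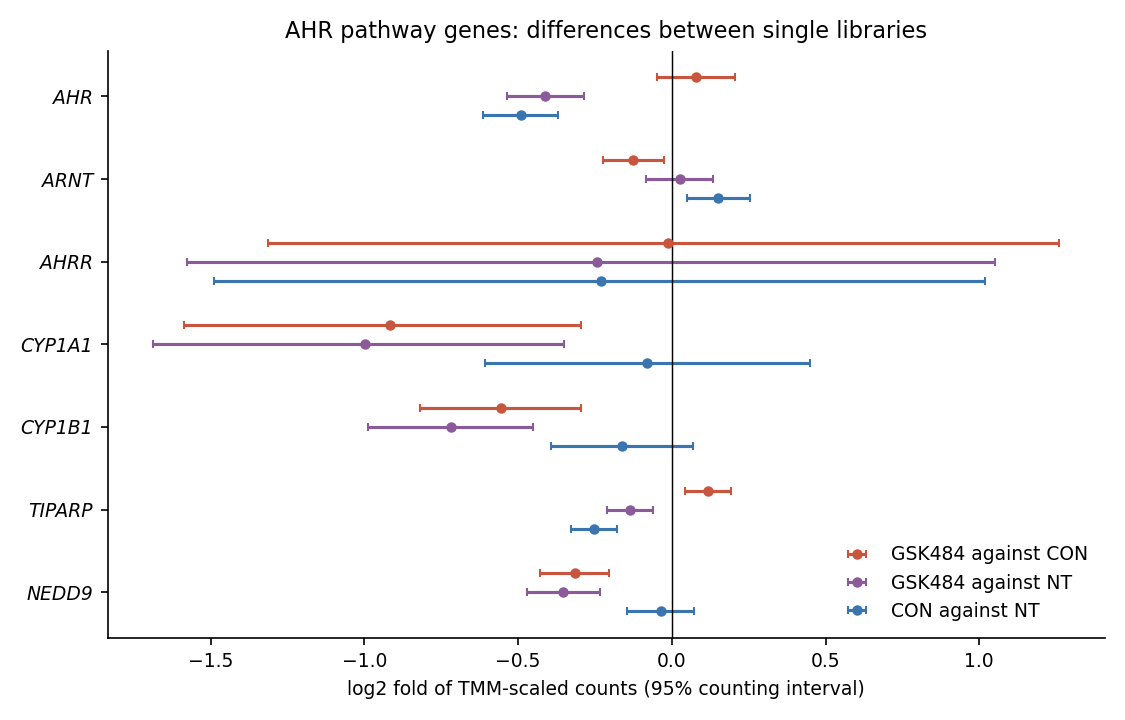
log2 fold (horizontal axis) with its 95% counting interval for 7 of the 8 genes in the 3 comparisons of single libraries, CYP1A2 being left out for its counts of 0. CYP1A1, CYP1B1 and NEDD9 lie left of 0 in both comparisons of GSK484 and across 0 in CON against NT, while AHR lies left of 0 in both comparisons with NT.

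Counted over the 5 measured members, 3 were lower in GSK484 than in CON beyond counting error (ARNT, CYP1B1 and NEDD9), where 27.4% of the 13199 measured genes were, and 1 was higher (TIPARP), where 26.9% were. Their median log2 fold was -0.13, against -0.01 over all measured genes. In deposited TPM it was -0.012, against 0.099 over all measured genes. With a log2 fold of at least 0.32 in size required as well, 1 member was lower (CYP1B1), with 4.48% of measured genes, and 0 were higher, with 8.99%. NEDD9, at -0.316, lay just short of it. At a fold of 2 the members counted 0 in either direction, where 0.273% of genes were lower and 0.197% higher. CYP1A1 was 1.89-fold lower but below the level minimum.

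Against NT, 4 of the 5 measured members were lower in GSK484 (AHR, CYP1B1, TIPARP and NEDD9), where 29.8% of 13209 genes were, and 0 were higher, where 27% were. The median was -0.35, against -0.0043 over all measured genes, and -0.21 once the GC and length trend was removed. With the log2 fold of 0.32 required, 3 were lower (AHR, CYP1B1 and NEDD9), with 7.47% of genes, and 0 were higher, with 5.04%. At a fold of 2, 0 members were lower, with 0.28% of genes, and 0 higher, with 0.257%. For CON against NT, 2 were lower (AHR and TIPARP), where 29.6% of 13221 genes were, and 1 was higher (ARNT), where 35.3% were. Their median was -0.16, or 0.043 with the trend removed, against 0.03 over all genes. The log2 fold of 0.32 left 1 lower (AHR), with 14.6% of genes, and 0 higher, with 6.88%. At a fold of 2, 0 were lower, with 1.35% of genes, and 0 higher, with 0.333%. Each pair of these comparisons shares a library, so that anything particular to the GSK484 library enters both of its comparisons. With 5 genes and single libraries, the counts describe these members and no more.

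**Figure D4:**
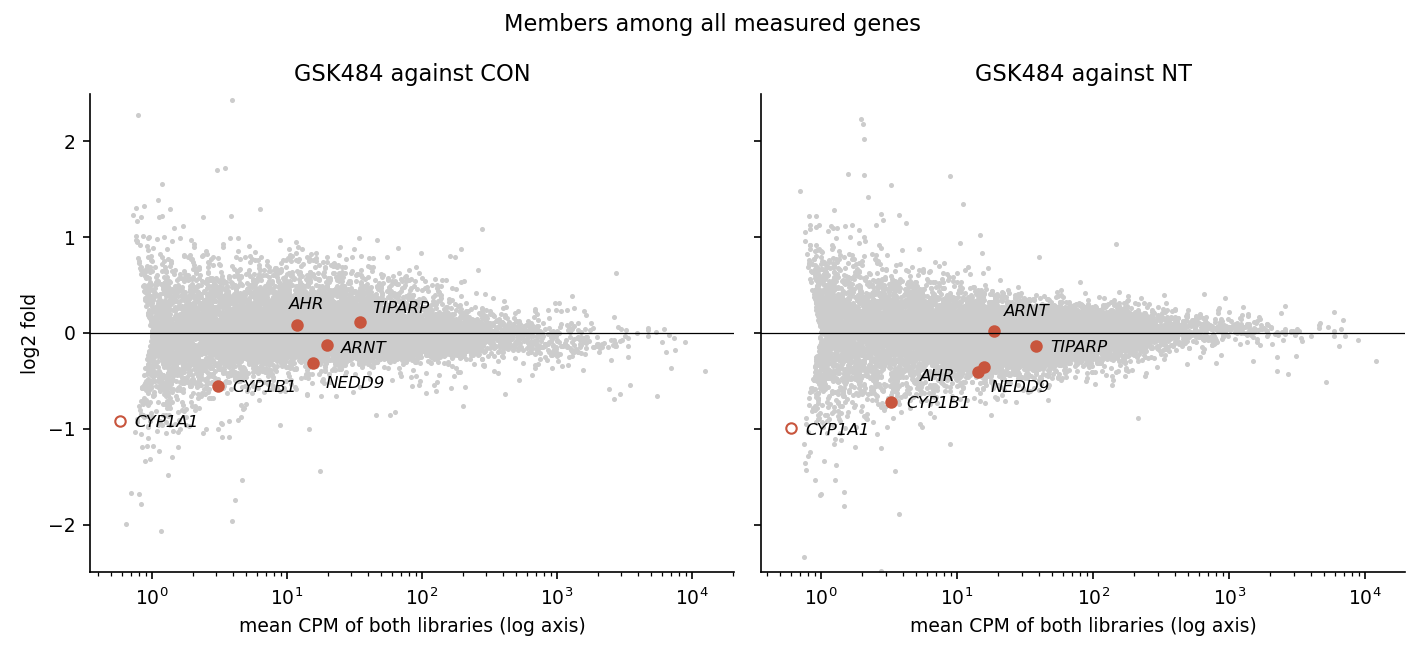
log2 fold (vertical axes) against the mean CPM of both libraries (horizontal log axes) for all measured genes (grey; genes beyond the axis limits are not drawn) and the members (red; open circle for CYP1A1, below the minimum of 1 CPM, with AHRR and CYP1A2 not drawn). CYP1B1 lies at the lower edge of genes of its level in both panels, and AHR, ARNT and TIPARP lie inside the cloud in GSK484 against CON.

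With 3 libraries a pattern has only 2 independent differences, so genes of similar pattern are given as a description. Likeness was the Euclidean distance, in log2 units, over the log2 folds of CON against NT and GSK484 against CON, among 8362 protein-coding genes of at least 10 CPM in every library. Nearest to CYP1B1 were DUSP1, a MAP kinase phosphatase gene (distance 0.13, GSK484 against CON -0.48), STC1, which codes for the secreted glycoprotein stanniocalcin (0.17, GSK484 against CON -0.50), and FRMD8 (0.18, GSK484 against CON -0.48). None lay within 0.1 of CYP1B1, which is itself below the 10 CPM asked of these genes. Its counting interval for GSK484 against CON, -0.82 to -0.30, is also wider than that distance. For AHR, which is above 10 CPM, 60 genes lay within 0.1, so the numbers for AHR and CYP1B1 are not comparable. The nearest were PDPR (distance 0.0068), RABGAP1L (0.012) and NCOA7 (0.015), and their log2 folds for CON against NT were -0.50, -0.49 and -0.49.

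Genes for the proteins that hold and assist AHR all passed the level minimum. Of 13 chaperone and coactivator genes, 6 lay above CON in the GSK484 library beyond counting error, where 26.9% of all measured genes did, and 0 below it, where 27.4% did. The median log2 fold was 0.05. With the trend on GC content and length removed, 5 were higher and 2 lower (RB1 and CREBBP), and EP300 was no longer among the higher ones. For the trend-removed counts the share of all measured genes was not counted. HSP90AA1, the inducible cytosolic HSP90 that keeps AHR able to bind ligand, was at 3506 CPM in NT, with 2135 in CON and 3300 in GSK484, with divided reads. Its log2 fold was 0.63 against CON and -0.09 against NT, so the CON library was the one that stood apart. The others were small against CON. EP300, a histone acetyltransferase and coactivator gene, was at 0.11 on the log2 scale (interval 0.03 to 0.19), and RELB, an NF-kB subunit that binds AHR, at 0.09 (interval 0.01 to 0.17). RB1, the retinoblastoma protein gene, was at 0.09 (interval 0.01 to 0.18), or -0.15 once the GC and length trend was removed. Against NT, 5 of the 13 were higher (27% of all measured genes) and 4 lower (29.8%), and for CON against NT 4 were higher (35.3%) and 7 lower (29.6%).

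Of 11 relatives of the bHLH-PAS family, many of which pair with ARNT or with each other, 7 were measured. In GSK484 against CON, 2 were higher, with 26.9% of all measured genes, and 4 lower, with 27.4%, and the median was -0.09. HIF1A, the oxygen-regulated partner of ARNT, was at 197 CPM in NT, with 108 in CON and 153 in GSK484, with divided reads. CLOCK, a circadian activator gene, was at 22.0, 11.7 and 16.5 CPM in the same order. Both were lowest in CON, and both had a log2 fold of 0.50 for GSK484 against CON, which the removal of the trend reduced to 0.26 and 0.23. EPAS1, which codes for HIF-2 alpha, was at 145 CPM in NT, with 145 in CON and 123 in GSK484. It thus had NT and CON together and GSK484 below (log2 fold -0.24 against CON, interval -0.28 to -0.20, and -0.23 against NT). BMAL1, the partner of CLOCK, was at 10.8, 12.7 and 9.82 CPM (-0.37 against CON, interval -0.51 to -0.24, and -0.14 against NT, interval -0.29 to 0.00). Against NT, 1 relative was higher (27% of all measured genes) and 3 lower (29.8%), and for CON against NT 3 were higher (35.3%) and 2 lower (29.6%).

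Of 20 further genes known to respond to AHR, 15 were measured. In GSK484 against CON, 5 were higher, with 26.9% of all measured genes, and 7 lower, with 27.4%. The median log2 fold was 0.0054, or -0.12 with the trend removed, which left 3 higher and 9 lower. No share of all measured genes was counted for that setting, so those counts describe the list alone. Against NT, 3 were higher (27% of all measured genes) and 8 lower (29.8%), with a median of -0.08. UGT1A1, a bilirubin and xenobiotic glucuronosyltransferase gene, was at 2.71 CPM in NT, with 3.37 in CON and 1.67 in GSK484. It was 2.01-fold lower in GSK484 than in CON (log2 fold -1.01, interval -1.32 to -0.71), but its reads were divided, since the UGT1A genes share exons, and the value is uncertain. NFE2L2, the NRF2 gene, was at 76.6, 53.7 and 70.3 CPM, also with divided reads, and CON was the lowest library (0.39 against CON, -0.12 against NT). KYNU, which codes for kynureninase, was lowest in CON too, at 12.0, 9.17 and 11.3 CPM (0.30 against CON, interval 0.17 to 0.44, or 0.13 with the trend removed). CCNG2, a cyclin gene of cell cycle arrest, was at 7.38, 8.19 and 6.61 CPM (-0.31 against CON, interval -0.47 to -0.14, and -0.16 against NT, interval -0.34 to 0.02).

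The enzymes that make kynurenine, a ligand of AHR, were little expressed at the first step. IDO1 and IDO2, which open the indole ring of tryptophan, had 0 counts in all 3 libraries, and TDO2 rounded to 0 in NT and CON. Of 13 tryptophan and kynurenine genes 7 were measured, and in GSK484 against CON 2 were higher (KYNU and KYAT3, a kynurenine aminotransferase gene, at 0.20) and 1 lower (WARS1, the cytosolic tryptophanyl-tRNA synthetase gene, at -0.08), where 26.9% of all measured genes were higher and 27.4% lower. Their median was -0.05. With the trend on GC content and length removed, 2 were higher and 1 lower, and KYNU and WARS1 were no longer among them. No share of all measured genes was counted for that setting. Against NT, 1 was higher (27% of all measured genes) and 2 lower (29.8%). For CON against NT 3 were higher (35.3%) and 3 lower (29.6%). KYAT3 and WARS1 had divided reads.

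Genes for the redox partners of the CYP1 enzymes and for conjugating enzymes were the last list. Of 9, 7 were measured. In GSK484 against CON, 1 was higher, with 26.9% of all measured genes, and 6 lower, with 27.4%, and the median log2 fold was -0.18. In CON against NT, 6 were higher, with 35.3% of all measured genes, and 0 lower, with 29.6%. Against NT, 1 was higher (27%) and 3 lower (29.8%) in GSK484, with a median of -0.03. With the trend removed, GSK484 had 1 higher and 5 lower relative to CON, and 0 higher and 6 lower relative to NT (median -0.12). CON then had 2 higher and 2 lower relative to NT. The shares of all measured genes were not counted with the trend removed, so these counts describe the list alone. CYB5A, the cytochrome b5 gene, was at 57.6 CPM in NT, with 63.2 in CON and 51.5 in GSK484 (-0.30 against CON, interval -0.35 to -0.24, and -0.16 against NT). EPHX1, the microsomal epoxide hydrolase gene, was at 68.0, 75.6 and 66.6 CPM (-0.18 against CON, and -0.03 against NT, interval -0.09 to 0.03).

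**Figure D5:**
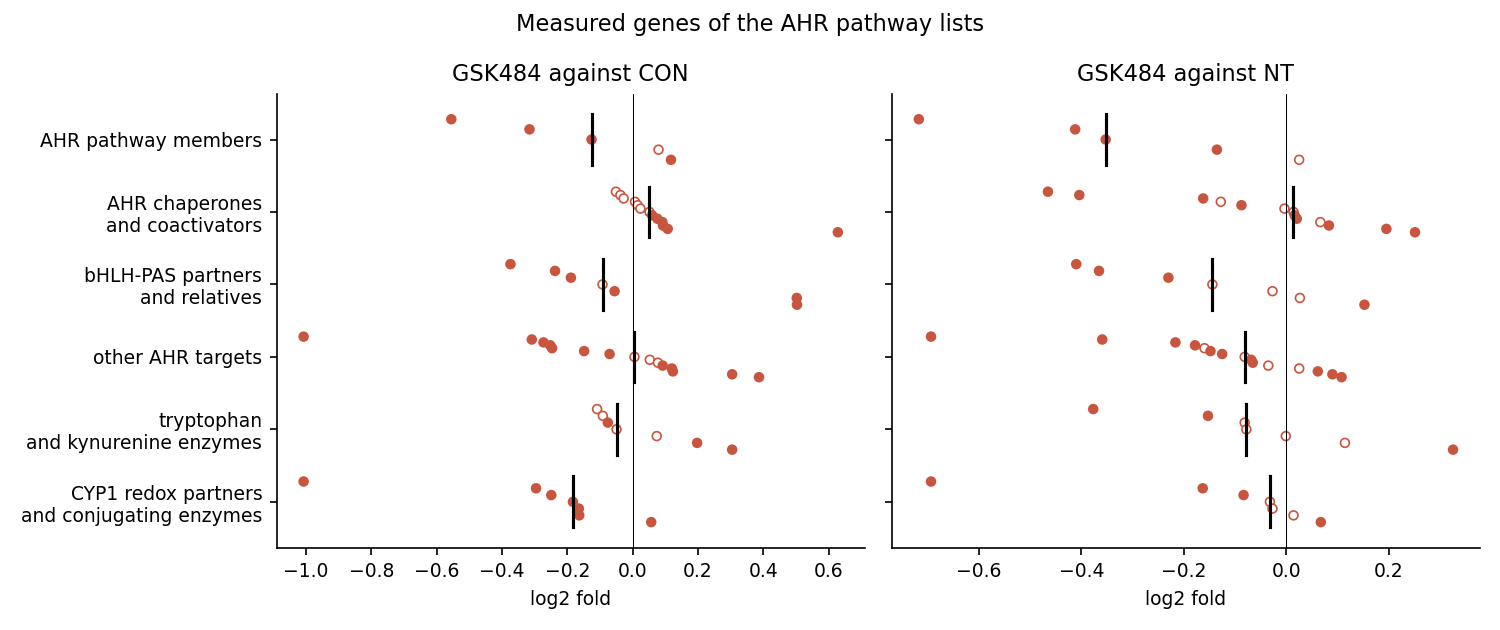
log2 fold (horizontal axes) of each measured gene in the 8-gene set and the 5 other lists of the pathway, for GSK484 against CON and against NT, with filled circles for genes beyond counting error, open circles for genes within it and a bar at each median. The lowest circle, at -1.01 against CON, is UGT1A1, which stands in 2 lists.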

How the data were processed

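RNA of MCF10Ca1h cells was sequenced in 3 libraries, 1 per group, as paired-end reads of 125 bp from a stranded total RNA kit, per the labels' protocols. The authors deposited 1 gene table per library, made with RSEM on hg19 per the submitters' processing notes. Which aligner, annotation and strand option were used is not given in the sources used here. Expected counts, as deposited, estimate how many reads belong to each gene and carry no normalization, per the file headers. TPM values, as deposited, divide by effective length and share 1 total across libraries, per the file headers. The deposited FPKM values were not used, and the effective length in bases was used as deposited.

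Gene symbols were matched to gene IDs from a gene name table. All 8 members were found. Expected counts were scaled to CPM with TMM factors (edgeR 4.0.16, R 4.3.3) of 1.01 (NT), 0.98 (CON) and 1.01 (GSK484). For a log2 fold, a prior count of 0.5 was added. The 95% interval is a Clopper-Pearson interval, an exact conditional binomial one, of rounded expected counts, computed with scipy 1.17.1 and tested on simulated data. With 1 library per group conditions could not be tested against each other, and intervals and floors hold counting error alone. Any PCR copies in the counts were treated as separate reads, which would make the intervals too narrow. A gene was measured in a comparison where at least 1 CPM was reached in either library. It lay beyond counting error where the interval excluded no difference, and stricter rules added a log2 fold of at least 0.32 in size, or a fold of 2. A count of 0 allows up to 3 counts. Reads of a gene were called undivided where its expected count was whole within 0.005 in every library.

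The members and the lists were chosen with earlier results of these data known. The text names all 8 members. From each other list it names up to 4 measured genes beyond counting error whose log2 folds for GSK484 against CON were largest in size. For CYP1B1 and AHR it also names the 3 protein-coding genes of at least 10 CPM in every library with the most similar pattern. A few genes that this rule or the marker lists would name are not reported here.

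The alternatives were scaling to total counts, DESeq2 1.42.0 size factors, the deposited TPM with a pseudocount of 0.01, a prior count of 5, no minimum or a minimum of 5 CPM, and the removal of a smooth trend on GC content and effective length. That trend was a natural spline with 5 knots for each property, fitted to 8368 protein-coding genes with 10 CPM or more in every library. GC content came from the longest transcript in GENCODE release 29, which belongs to another build, and was known for 97.2% of 13312 measured genes. Promoter windows came from RefSeq on GRCh38.p14. No coordinates of the deposited tables' build were used.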

Additional observations from a re-analysis of the deposited data

How the results depend on the processing

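No paired analysis was possible because there was 1 library per group. For the same reason no library could be left out, and every value rests on single libraries. Removing the GC and length trend left 0 members higher in GSK484 than in CON and 0 lower in CON than in NT. It moved the median of the measured members to -0.21 for GSK484 against NT, and turned it to 0.043 for CON against NT. The cause was not tested, and shares of all measured genes were not counted with the trend removed. The other alternatives kept the counts within 1.5 times and the direction of the medians. The median for GSK484 against CON, -0.13, moved in size, to -0.012 in deposited TPM, -0.023 at a minimum of 5 CPM and -0.22 with no minimum, with -0.09 for total counts. For CON against NT deposited TPM gave -0.29, compared with -0.16. Of 115 values of single members under alternatives, 10 moved beyond their counting interval and none that lay beyond counting error changed sign. Deposited TPM gives no counting interval and so no count. With the minimum dropped, CYP1A1 joined the lower members in both GSK484 comparisons. AHRR and CYP1A2 had too few reads for any comparison.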

Other observations

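The deposited effective length, which follows the mix of isoforms assigned to a gene, differed between libraries for several members. For AHRR it was 2739 bases in NT, 3261 in CON and 5484 in GSK484, from 11 to 13 reads each, so that similar read numbers gave 0.07, 0.05 and 0.03 TPM. For CYP1A1 it was 2472, 2370 and 2308 bases, and its log2 fold for GSK484 against NT was -0.89 in TPM and -0.997 in counts. For CYP1B1 it was 4608, 4675 and 5070 bases. Its log2 fold in TPM for GSK484 against NT was -0.86, compared with -0.72 in counts. TIPARP, with 2833 to 3058 reads, had 3157, 3038 and 3101 bases.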
